A study of Homo sapiens with 9 samples.

Results

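The 48 protein-coding genes whose symbol starts with NDUF, of 62703 genes in the deposited table, were described across 9 RNA sequencing libraries of HK-2 cells. They were chosen by gene type and symbol, with earlier results of these data known. They hold 37 nuclear subunits of respiratory complex I, 8 assembly factors (NDUFAF1 to NDUFAF8) and 3 genes named in the family that are not stable complex I subunits. Those 3 are NDUFA4, now placed in complex IV, its paralogue NDUFA4L2, and the read-through gene NDUFC2-KCTD14. HK-2 is a human proximal tubule line immortalised with papillomavirus genes, and the series asks how the secreted growth factor MYDGF relates to mitochondria in injured kidney tubules. The MYDGF group (libraries 1, 3 and 4) was labelled as overexpressing MYDGF from an adenoviral vector and received aristolochic acid at 5 µg/ml for 48 h. The aristolochic acid group (libraries 1, 4 and 6) was labelled wild type and received aristolochic acid, a plant toxin that tubule cells take up and that forms DNA adducts, at 5 µg/ml for 48 h. The untreated group (libraries 1, 2 and 3) was labelled wild type and received none. Serum starvation for 12 h and medium with 5% serum were given for all 3 groups. The labels name neither a control vector nor a vehicle, so MYDGF cannot be told apart from its vector, nor the toxin from its solvent. They do not say that libraries came from separate cultures, so the spread behind each p-value is that between 3 libraries a group, which may be technical.

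Complex I oxidises NADH, passes the electrons through iron-sulfur clusters to ubiquinone and pumps protons across the inner mitochondrial membrane. Its matrix arm is built of the N module, which takes up NADH, and the Q module, which reduces ubiquinone. Its membrane arm has a proximal and a distal part, whose pumping subunits are encoded in mitochondrial DNA. Assembly factors bind the growing intermediates and leave before the enzyme is finished. Proximal tubule cells depend on this respiration to reabsorb solutes.

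Total counts ran from 10876572 to 14254786 per library. MYDGF itself averaged 591 CPM in the MYDGF group and 89.8 CPM in the aristolochic acid group, a log2 fold change of 2.72 (SE 0.14, adjusted p = 2.74e-05); CPM are counts per 1000000 scaled with TMM. The cell line entry reads HK-2 for all 9 libraries, while the treatment text reads HK-3 or HK-4 for MYDGF libraries 3 and 4 and untreated libraries 2 and 3; this was not resolved. Of 10 proximal tubule markers 5 could be tested, and the markers summed to 17.4 to 20.4 CPM in the MYDGF group, 22.9 to 35.4 CPM in the aristolochic acid group and 12.4 to 12.7 CPM in untreated cells. Defining genes were at or near 0, with SLC22A6 at 0 counts in all 9 libraries and LRP2 at no more than 0.309 CPM, so the labelled cell type rests here on epithelial keratin and adhesion genes (1080 to 1711 CPM summed over 5 markers). Markers of endothelium summed to 3.59 to 4.14 CPM in the MYDGF group, 6.56 to 12.4 CPM in the aristolochic acid group and 0.984 to 1.26 CPM in untreated cells. Those of fibroblasts and mesangium summed to at most 15.6 CPM, of leukocytes to at most 3.10 CPM and of distal nephron and podocytes to 2.47 to 3.37 CPM in the MYDGF group, 6.32 to 8.04 CPM in the aristolochic acid group and 2.60 to 3.41 CPM in untreated cells. The part of these markers in the results was not tested. With aristolochic acid all 5 tested proximal tubule markers and 4 of 5 epithelial markers rose, where 29.7% of all genes tested did. The fifth epithelial marker, the adhesion gene CDH1, fell at a log2 fold change of -1.13 (SE 0.10, adjusted p = 1.94e-05). Of the 5 tested proximal tubule markers, MIOX passed the filter on low counts only through its aristolochic acid libraries. It had 12, 28 and 10 counts there, 7, 5 and 3 in the MYDGF libraries and 3, 2 and 2 in the untreated ones. Its rise is therefore partly set by the filter. In bulk RNA, fewer cells of a type and less RNA per cell cannot be told apart, and CPM give shares of a library, not amounts per cell.

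Promoter sequence from RefSeq (GRCh38.p14, 250 bases before to 50 after a start) was matched by symbol for 40 of the 48 genes. It is shown because NRF1, ETS factors such as GABP, and YY1 are known to bind promoters of nuclear respiratory genes. The letters searched on both strands were TGCGCA (NRF1), CCGGAAG (ETS) and AGATGGC (YY1), none of which contains another. TGCGCA stood in 12 of 40 NDUF promoters (30.0%), against 9.76% of 27305 genes with a promoter. CCGGAAG stood in 7 (17.5%), against 12.2%, and AGATGGC in 9 (22.5%), against 6.63%. At least 1 of the 3 stood in 21 of 40 (52.5%), against 24.7% of all genes. Of NDUF genes with a promoter that rose with aristolochic acid, TGCGCA stood in 3 of 4, of those that fell in 2 of 18 and of those not called in 5 of 16. CCGGAAG stood in 1 of 4, 2 of 18 and 4 of 16 of these, and AGATGGC in 1 of 4, 3 of 18 and 3 of 16. With so few genes no test is given. The 250 bases before the start are printed for 5 genes on which the results below turn, with matches that lie whole within them in capitals.
NDUFA9: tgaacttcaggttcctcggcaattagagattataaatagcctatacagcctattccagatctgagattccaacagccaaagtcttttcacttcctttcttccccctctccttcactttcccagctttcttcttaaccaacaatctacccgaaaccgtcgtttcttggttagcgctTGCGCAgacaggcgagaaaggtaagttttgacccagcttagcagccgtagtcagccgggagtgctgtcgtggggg
NDUFA8: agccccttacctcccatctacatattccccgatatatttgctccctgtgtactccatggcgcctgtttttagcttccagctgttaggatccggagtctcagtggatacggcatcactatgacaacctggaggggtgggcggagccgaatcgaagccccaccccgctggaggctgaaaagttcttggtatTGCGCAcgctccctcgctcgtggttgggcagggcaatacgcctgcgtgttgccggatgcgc
NDUFAF4: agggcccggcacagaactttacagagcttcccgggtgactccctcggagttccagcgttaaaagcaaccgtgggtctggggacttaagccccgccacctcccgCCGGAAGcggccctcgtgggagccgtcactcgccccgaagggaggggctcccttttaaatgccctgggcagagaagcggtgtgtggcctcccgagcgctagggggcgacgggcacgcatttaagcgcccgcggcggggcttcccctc
NDUFB10: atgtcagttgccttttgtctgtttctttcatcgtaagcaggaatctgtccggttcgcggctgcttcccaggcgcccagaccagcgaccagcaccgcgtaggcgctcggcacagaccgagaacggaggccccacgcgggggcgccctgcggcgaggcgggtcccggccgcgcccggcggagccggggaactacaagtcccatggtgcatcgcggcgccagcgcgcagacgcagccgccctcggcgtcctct
NDUFAF1: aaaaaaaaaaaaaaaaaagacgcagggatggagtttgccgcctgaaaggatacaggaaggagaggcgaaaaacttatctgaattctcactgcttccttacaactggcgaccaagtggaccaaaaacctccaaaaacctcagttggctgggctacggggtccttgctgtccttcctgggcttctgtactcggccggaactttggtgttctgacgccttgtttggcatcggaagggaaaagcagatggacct
The stretches are chr12:4648864-4649113 (plus strand), chr9:122159780-122160029 (minus strand), chr6:96897892-96898141 (minus strand), chr16:1959288-1959537 (plus strand) and chr15:41402497-41402746 (minus strand), each written 5′ to 3′ on its gene's strand. NDUFA9 and NDUFA8 are the subunits called lower in the MYDGF group against aristolochic acid by edgeR's adjusted p. Each holds TGCGCA, and further matches cross or follow the start of NDUFA8 and follow that of NDUFA9 and NDUFAF4. NDUFAF4, an assembly factor that rose with the toxin, holds CCGGAAG. NDUFB10 and NDUFAF1, which fell steeply with it, hold none of these letters in this window. The NDUFAF1 window lies inside the gene's span in the table (41387218 to 41409403), so the upstream end of that span was not searched. Other genes that fell steeply do hold a match, NDUFAF3 to AGATGGC in 1 of its 4 promoters and NDUFA13 and NDUFB7 to CCGGAAG. NDUFAF2, an assembly factor that rose with the toxin, holds no match.

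Members differed widely in level. Per kilobase of merged exons in GENCODE 29, the highest untreated levels were 128.3 CPM per kb for NDUFS5, 78.2 for NDUFB7, 77.4 for NDUFA8 and 63.3 for NDUFV2. Among assembly factors the untreated order was NDUFAF3 at 26.0 CPM per kb, NDUFAF2 at 20.6, NDUFAF8 at 13.2, NDUFAF1 at 11.8, NDUFAF7 and NDUFAF4 at 5.49 and 5.48, NDUFAF6 at 2.41 and NDUFAF5 at 1.38. With aristolochic acid NDUFAF2 stood first at 35.1 CPM per kb, while NDUFAF3 stood at 2.98 and NDUFAF1 at 1.78. A few subunits were almost uncounted. NDUFA3, a small membrane subunit, had 0 to 4 counts in a library and NDUFA6 of the N module had 4 to 7, and neither passed the filter on low counts. NDUFS3, a core subunit of the Q module, had only 16 to 38 counts. Some genes that neighbour these 3 in the genome, looked up after their values were seen, were also almost uncounted, with TFPT at 0 counts in all 9 libraries, SMDT1 at 0 to 3, KBTBD4 at 0 to 2 and PRPF31 at 2 to 8. PTPMT1 and CELF1, which overlap NDUFS3, passed the filter and had log2 fold changes of 0.36 and -0.25 in the MYDGF comparison with aristolochic acid. NDUFS3 passed the filter, and 46 of the 48 NDUF genes were tested.

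Aristolochic acid against untreated cells asks how the toxin group differed. The steepest falls were in the assembly factors NDUFAF3 and NDUFAF1 and the distal-arm subunit NDUFB10, with log2 fold changes of -3.13, -2.71 and -2.42; changes below are on this scale. Of the assembly factors 4 rose, NDUFAF5 the most at 0.90, while NDUFA9 was the subunit that rose. Of 46 NDUF genes tested 5 rose and 20 fell (edgeR quasi-likelihood test, adjusted p under 0.05), where 59.0% of all 18267 genes tested were called (29.7% higher, 29.3% lower). Of 35 tested subunits 1 rose and 18 fell, with a median log2 fold change of -0.31, against -0.01 over all genes. Groups did not overlap for 21 NDUF genes that were lower and 7 that were higher, where 33.0% and 32.9% of all genes did not overlap in these directions (65.9% in either). The share called thus lay near that of all genes, with more lower than higher calls among NDUF genes.

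**Figure D1:**
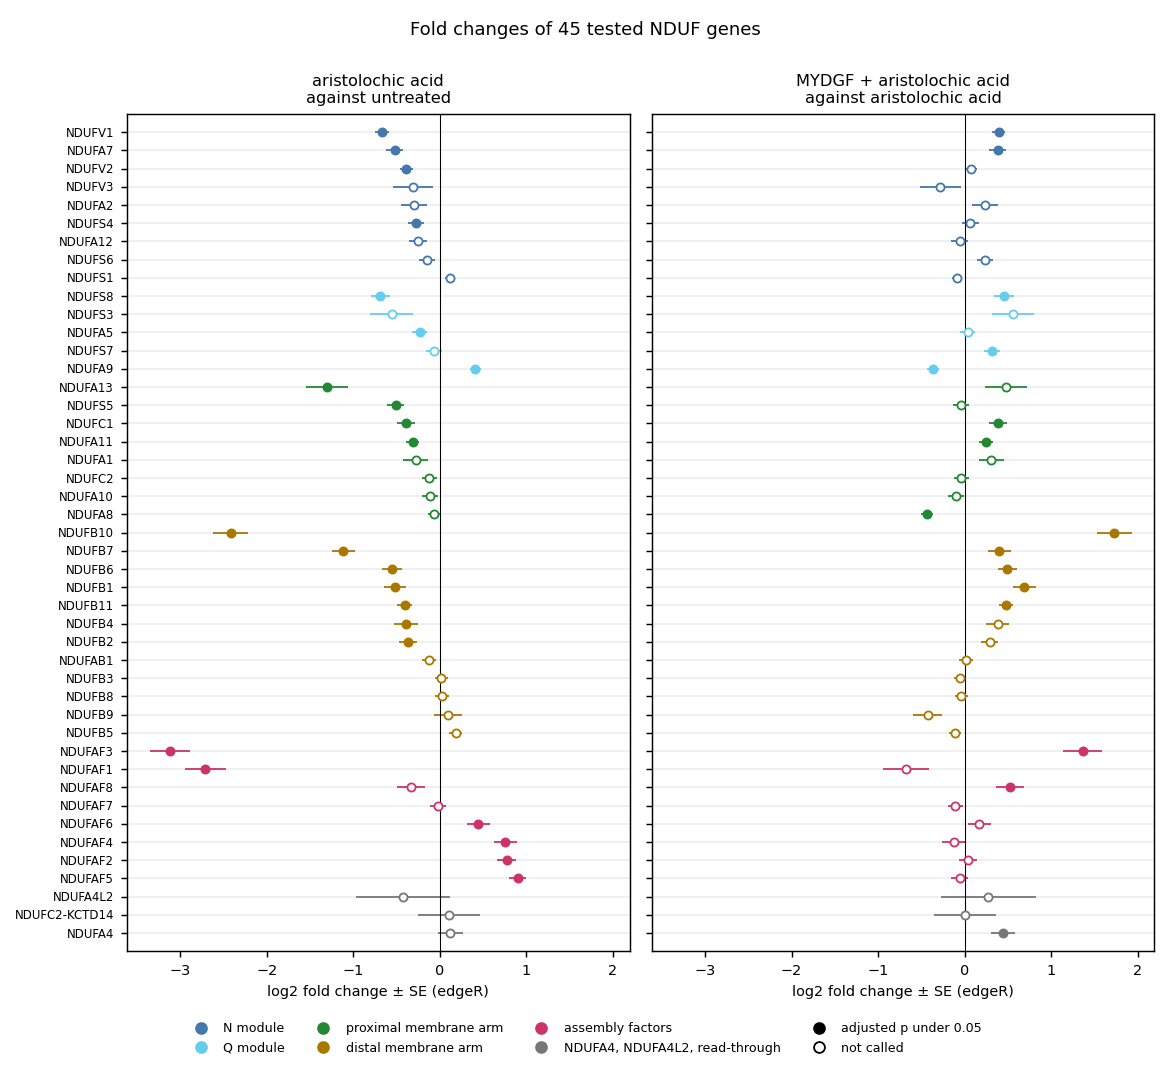
Log2 fold changes (edgeR, points) with SE (bars) of 45 of the 46 tested NDUF genes, aristolochic acid against untreated cells on the left and MYDGF with aristolochic acid against aristolochic acid on the right, on the same axis, coloured by module; filled points have an adjusted p under 0.05. NDUFAF3, NDUFAF1 and NDUFB10 lie far to the left in the first panel at -3.13, -2.71 and -2.42, and NDUFB10 and NDUFAF3 far to the right in the second.

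In the N module 4 of 9 tested subunits fell (median -0.30). NDUFV1, the core subunit that binds NADH and FMN, stood at 79.7, 76.9 and 73.8 CPM in the MYDGF libraries, 60.7, 58.8 and 55.5 CPM in the aristolochic acid libraries and 90.3, 87.2 and 101 CPM in the untreated libraries. The 3 groups did not overlap, with the aristolochic acid libraries lowest. Its log2 fold change with the toxin was -0.67 (SE 0.08, adjusted p = 8.12e-05). NDUFA7, a supernumerary subunit of this module, stood at 29.9, 37.3 and 34.3 CPM in the MYDGF libraries, 27.1, 25.1 and 25.7 CPM in the aristolochic acid libraries and 39.2, 37.8 and 35.0 CPM in the untreated libraries. All 3 aristolochic acid libraries lay below all others, at a log2 fold change against untreated of -0.52 (SE 0.10, adjusted p = 0.00135). NDUFV2, which carries an iron-sulfur cluster beside NDUFV1, changed by -0.39 (SE 0.07, adjusted p = 0.00126), and NDUFS4, a subunit mutated in Leigh syndrome, by -0.28 (SE 0.10, adjusted p = 0.0321). NDUFS1, the largest core subunit, was not called at 0.12 (SE 0.06, adjusted p = 0.112), though its 3 aristolochic acid libraries lay above the untreated ones. NDUFA12, NDUFA2, NDUFV3 and NDUFS6 were not called, at -0.31 to -0.15.

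In the Q module 3 of 6 subunits fell and 1 rose (median -0.34). NDUFS8, a core subunit with iron-sulfur clusters, stood at 64.8, 79.6 and 70.9 CPM in the MYDGF libraries, 59.4, 44.2 and 53.4 CPM in the aristolochic acid libraries and 80.3, 87.2 and 85.2 CPM in the untreated libraries. The 3 groups kept apart, and the change with aristolochic acid was -0.69 (SE 0.12, adjusted p = 0.000743). NDUFA5, a supernumerary subunit of this module, passed narrowly at -0.23 (SE 0.09, adjusted p = 0.0466). NDUFA9 (ENSG00000139180, chromosome 12, 4649095 to 4694317), a nucleotide-binding subunit where the Q module meets the membrane arm, stood at 57.8, 62.1 and 64.0 CPM in the MYDGF libraries, 76.4, 81.5 and 79.1 CPM in the aristolochic acid libraries and 59.6, 58.3 and 60.2 CPM in the untreated libraries. The aristolochic acid libraries were above all 6 others, which overlapped. It was the only tested subunit that rose with aristolochic acid, at 0.41 (SE 0.06, adjusted p = 0.000505). NDUFS7, which holds the last cluster before ubiquinone, was not called at -0.07 (SE 0.09, adjusted p = 0.536), and NDUFS3 at -0.56 (SE 0.25, adjusted p = 0.0808) rests on few counts. Of the 7 core subunits encoded in the nucleus, which are conserved from bacteria, 4 fell.

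Of 8 tested subunits of the proximal membrane arm 4 fell (median -0.30). NDUFA13, also known as GRIM-19, stood at 26.6, 41.6 and 23.7 CPM in the MYDGF libraries, 18.1, 28.6 and 19.0 CPM in the aristolochic acid libraries and 56.5, 45.9 and 60.1 CPM in the untreated libraries. Aristolochic acid libraries were below untreated ones, with a wide spread, and the change was -1.30 (SE 0.24, adjusted p = 0.00128). NDUFS5 fell at -0.51 (SE 0.09, adjusted p = 0.00131). NDUFC1, a small membrane subunit, stood at 37.7, 42.9 and 40.1 CPM in the MYDGF libraries, 29.6, 27.8 and 34.6 CPM in the aristolochic acid libraries and 36.9, 40.2 and 43.2 CPM in the untreated libraries. Its aristolochic acid libraries lay below both other groups, which overlapped, with -0.39 (SE 0.10, adjusted p = 0.00995) against untreated. NDUFA11, a membrane subunit at the joint of the arm, stood at 98.5, 106 and 97.9 CPM in the MYDGF libraries, 85.5, 84.2 and 85.5 CPM in the aristolochic acid libraries and 109.7, 114 and 94.1 CPM in the untreated libraries. The toxin libraries were the lowest 3, at -0.32 (SE 0.08, adjusted p = 0.00715). NDUFA8 (ENSG00000119421, chromosome 9, 122144058 to 122159779), a subunit on the intermembrane-space side, stood at 45.5, 49.5 and 42.8 CPM in the MYDGF libraries, 62.8, 61.7 and 62.1 CPM in the aristolochic acid libraries and 67.0, 62.8 and 66.3 CPM in the untreated libraries. Its toxin and untreated libraries overlapped, at -0.07 (SE 0.07, adjusted p = 0.41). NDUFA1, NDUFC2 and NDUFA10 were not called, at -0.28 to -0.11.

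In the distal membrane arm 7 of 12 subunits fell (median -0.38). NDUFB10 (ENSG00000140990, chromosome 16, 1959538 to 1961975), on the intermembrane-space side, stood at 16.9, 27.0 and 19.1 CPM in the MYDGF libraries, 7.53, 4.95 and 6.53 CPM in the aristolochic acid libraries and 32.6, 34.5 and 34.7 CPM in the untreated libraries. Means were 21.0 ± 5.31, 6.34 ± 1.30 and 33.9 ± 1.18 CPM (SD, n = 3) in the MYDGF, aristolochic acid and untreated groups, with no overlap between any of them. The change with the toxin, -2.42 (SE 0.20, adjusted p = 1.72e-05), was the largest of the 35 tested subunits. NDUFB7, also facing the intermembrane space, stood at 22.3, 29.3 and 24.2 CPM in the MYDGF libraries, 19.3, 16.8 and 21.3 CPM in the aristolochic acid libraries and 38.2, 40.8 and 45.5 CPM in the untreated libraries, and fell with the toxin at -1.12 (SE 0.13, adjusted p = 0.000107). Its 3 groups did not overlap, with the aristolochic acid group lowest. NDUFB6, NDUFB1 and NDUFB11 are small membrane subunits. NDUFB6 stood at 27.0, 34.7 and 31.1 CPM in the MYDGF libraries, 20.3, 22.8 and 22.7 CPM in the aristolochic acid libraries and 29.8, 32.5 and 34.2 CPM in the untreated libraries, with the toxin group alone below (-0.55 (SE 0.11, adjusted p = 0.00211) against untreated). NDUFB1 stood at 42.0, 45.2 and 36.2 CPM in the MYDGF libraries, 27.3, 27.4 and 21.7 CPM in the aristolochic acid libraries and 32.3, 36.8 and 40.6 CPM in the untreated libraries, again with the toxin group lowest (-0.52 (SE 0.13, adjusted p = 0.00707)). NDUFB11, encoded on the X chromosome, stood at 69.3, 80.2 and 74.1 CPM in the MYDGF libraries, 57.8, 52.9 and 49.8 CPM in the aristolochic acid libraries and 66.6, 74.4 and 72.0 CPM in the untreated libraries. Its toxin libraries lay below all others, at -0.41 (SE 0.09, adjusted p = 0.00258). NDUFB4 changed by -0.39 (SE 0.14, adjusted p = 0.0329) and NDUFB2 by -0.37 (SE 0.10, adjusted p = 0.0118). NDUFAB1, the mitochondrial acyl carrier protein, and NDUFB3, NDUFB8, NDUFB9 and NDUFB5 were not called, at -0.12 to 0.18.

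**Figure D2:**
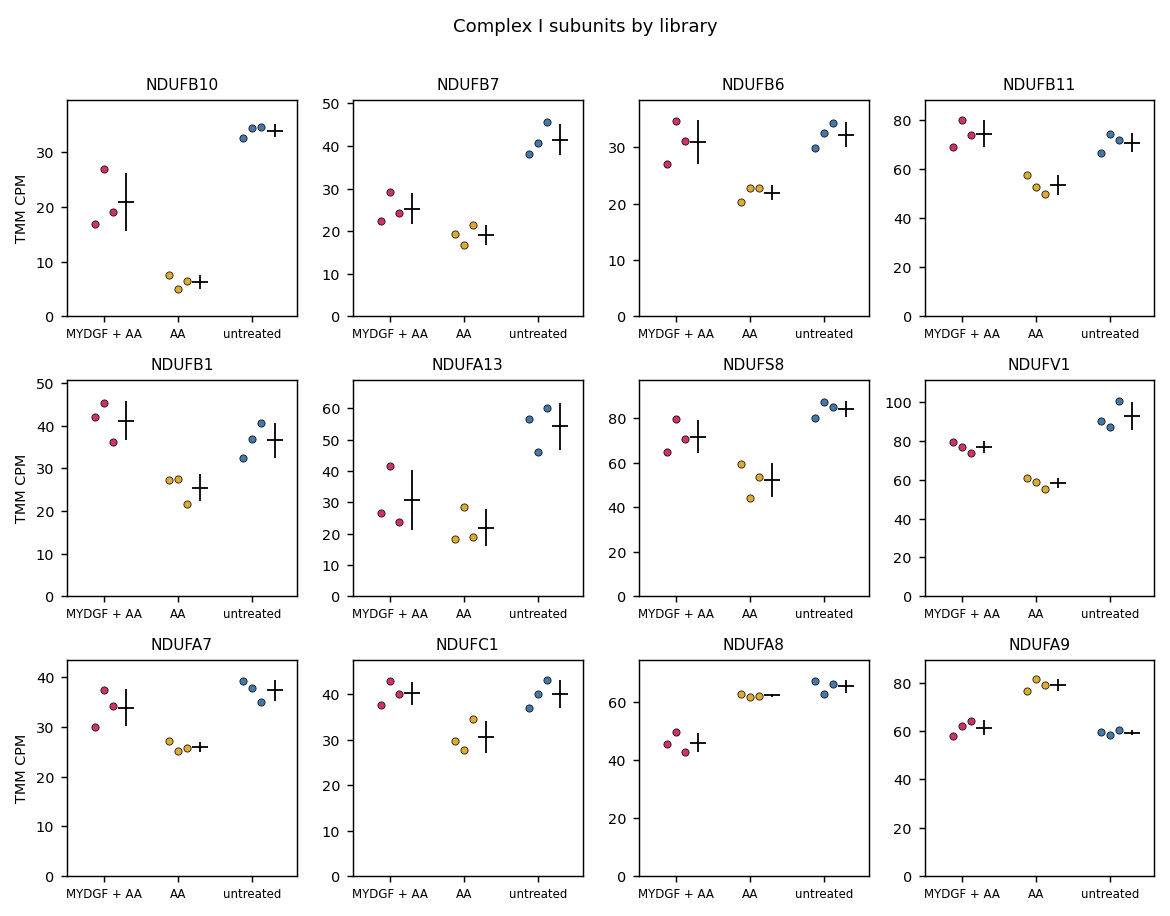
Levels of 12 subunits in TMM-scaled CPM ( y axis from 0) in each library of the MYDGF with aristolochic acid (MYDGF + AA), aristolochic acid (AA) and untreated groups, with mean and SD (n = 3) beside the points. In the aristolochic acid group NDUFB10 sits at 4.95 to 7.53 CPM, below both other groups, and NDUFA9 at 76.4 to 81.5 CPM, above both.

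Of 8 assembly factors 4 rose and 2 fell with aristolochic acid (median 0.21). Of all genes tested 29.7% rose and 29.3% fell. NDUFAF3 (ENSG00000178057, chromosome 3, 49020459 to 49023495), which acts with NDUFAF4 on the Q module, stood at 15.6, 26.1 and 14.3 CPM in the MYDGF libraries, 8.34, 6.03 and 7.36 CPM in the aristolochic acid libraries and 65.6, 59.0 and 65.0 CPM in the untreated libraries. The toxin libraries held the least, and the 3 groups kept apart at means of 18.7 ± 6.43, 7.24 ± 1.16 and 63.2 ± 3.67 CPM (SD, n = 3) for MYDGF, aristolochic acid and untreated cells. Against untreated the toxin group changed by -3.13 (SE 0.23, adjusted p = 1.02e-05). NDUFAF1 (ENSG00000137806, chromosome 15, 41387218 to 41409403), of the complex that builds the proximal membrane arm, stood at 1.84, 2.65 and 1.55 CPM in the MYDGF libraries, 2.75, 4.33 and 2.48 CPM in the aristolochic acid libraries and 18.9, 23.7 and 20.7 CPM in the untreated libraries. The treated groups overlapped each other far below the untreated one, at -2.71 (SE 0.24, adjusted p = 2.15e-05) for the toxin. NDUFAF5, which hydroxylates an arginine of NDUFS7, stood at 18.3, 16.2 and 19.2 CPM in the MYDGF libraries, 18.8, 17.9 and 19.1 CPM in the aristolochic acid libraries and 9.99, 10.2 and 9.68 CPM in the untreated libraries. NDUFAF2, the paralogue of NDUFA12 that acts late on the N module, stood at 33.8, 38.9 and 37.5 CPM in the MYDGF libraries, 33.7, 40.9 and 32.6 CPM in the aristolochic acid libraries and 20.2, 20.0 and 22.5 CPM in the untreated libraries. In both genes all 6 treated libraries lay above the untreated ones and overlapped each other, with toxin changes of 0.90 (SE 0.10, adjusted p = 7.61e-05) and 0.77 (SE 0.11, adjusted p = 0.0003). NDUFAF4 stood at 22.0, 20.5 and 22.1 CPM in the MYDGF libraries, 19.9, 26.6 and 24.0 CPM in the aristolochic acid libraries and 13.4, 12.5 and 15.9 CPM in the untreated libraries. NDUFAF6, needed for early membrane-arm assembly, stood at 21.3, 22.9 and 26.9 CPM in the MYDGF libraries, 20.2, 24.3 and 18.5 CPM in the aristolochic acid libraries and 16.4, 15.4 and 14.5 CPM in the untreated libraries. Untreated libraries were again lowest in both, at 0.75 (SE 0.13, adjusted p = 0.00102) and 0.45 (SE 0.13, adjusted p = 0.0168) with the toxin. NDUFAF7, an arginine methyltransferase, stood at 17.8, 18.8 and 18.4 CPM in the MYDGF libraries, 18.7, 21.2 and 19.3 CPM in the aristolochic acid libraries and 19.7, 20.7 and 19.7 CPM in the untreated libraries. NDUFAF8, a partner of NDUFAF5, stood at 19.5, 23.0 and 19.4 CPM in the MYDGF libraries, 11.6, 13.8 and 17.8 CPM in the aristolochic acid libraries and 20.0, 17.6 and 16.6 CPM in the untreated libraries. Groups overlapped for both in this comparison, and neither was called, at -0.02 (SE 0.09, adjusted p = 0.842) and -0.34 (SE 0.16, adjusted p = 0.0995).

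**Figure D3:**
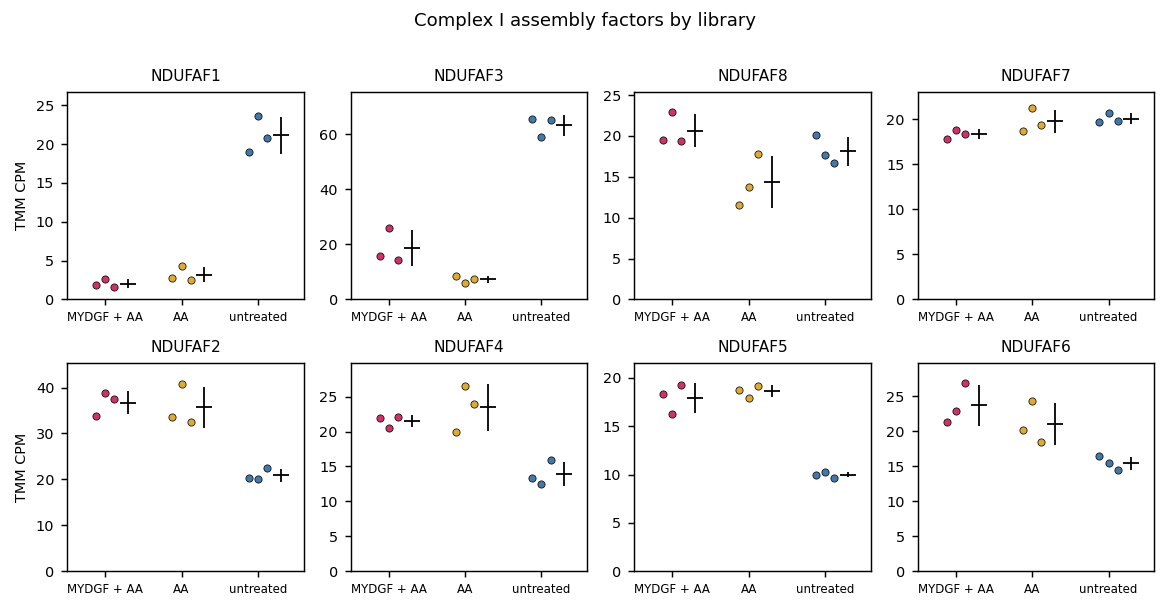
Levels of the 8 assembly factors in TMM-scaled CPM ( y axis from 0) by library and group, with mean and SD (n = 3); MYDGF + AA is MYDGF with aristolochic acid and AA is aristolochic acid. NDUFAF1 and NDUFAF3 are lower in all treated libraries than in untreated ones, and NDUFAF2, NDUFAF4, NDUFAF5 and NDUFAF6 are higher.

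Some calls of this comparison rested on single libraries. NDUFA5 lost its call when any of 8 libraries was left out (adjusted p 0.0545 to 0.195, all but untreated 3), and NDUFS4 without MYDGF 1, aristolochic acid 4 or 6, or untreated 2 or 3 (0.0521 to 0.137). NDUFB4 lost it without MYDGF 4, aristolochic acid 4 or 6, or untreated 2 or 3 (0.0556 to 0.127), NDUFB2 without untreated 3 (0.0529), and NDUFAF6 without aristolochic acid 4 (0.0587) or untreated 3 (0.0537). NDUFAF8 was called lower without aristolochic acid 6 (0.019). Where no gene of a module rose, the count at an unadjusted p under 0.05 was also 0 in the N module and proximal arm, by edgeR and, after adjustment, by DESeq2. In the distal arm both gave 1 gene.

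MYDGF with aristolochic acid against aristolochic acid asks what differed between toxin-treated cells with and without the MYDGF vector. NDUF genes were more often higher than lower, with 14 higher and 2 lower of 46 tested, where 29.4% of all genes were called (14.7% higher, 14.7% lower). Of 35 subunits 11 rose and 2 fell (median 0.23, against 0.01 over all genes), and of 8 assembly factors 2 rose (median -0.01). Groups did not overlap for 16 NDUF genes that were higher and 4 that were lower, where 22.5% and 21.8% of all genes did not overlap (44.3% in either direction). This comparison shares its aristolochic acid libraries with the one above, and a deviation in them moves both in opposite directions. Library values are those given above.

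Among membrane-arm subunits 5 of 12 in the distal part rose (median 0.34). NDUFB10 rose by 1.73 (SE 0.20, adjusted p = 0.000949), the largest of the 46 tested NDUF genes, and NDUFB1 by 0.69 (SE 0.13, adjusted p = 0.00539). NDUFB6 changed by 0.49 (SE 0.11, adjusted p = 0.0109), NDUFB11 by 0.48 (SE 0.09, adjusted p = 0.00427) and NDUFB7 by 0.40 (SE 0.13, adjusted p = 0.0481). In the proximal part NDUFC1 rose at 0.39 (SE 0.10, adjusted p = 0.0212) and NDUFA11 at 0.25 (SE 0.08, adjusted p = 0.0439), while NDUFA8 fell at -0.44 (SE 0.07, adjusted p = 0.00315), with means of 45.9 ± 3.36 CPM in the MYDGF group and 62.2 ± 0.593 CPM in the aristolochic acid group (SD, n = 3). NDUFA13 was not called, at 0.48 (SE 0.24, adjusted p = 0.162), with MYDGF library 3 at 41.6 CPM and the other MYDGF libraries within the range of the toxin group. NDUFB9 of the distal part stood at 34.2, 38.5 and 31.9 CPM in the MYDGF libraries, 43.4, 51.1 and 46.4 CPM in the aristolochic acid libraries and 32.3, 48.3 and 51.2 CPM in the untreated libraries. Its MYDGF libraries lay below those of the toxin group, and it was not called, at -0.43 (SE 0.16, adjusted p = 0.0759); DESeq2 gave 1 lower gene in the distal part.

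In the matrix arm 2 of 9 N-module subunits rose (median 0.07), NDUFV1 at 0.40 (SE 0.08, adjusted p = 0.00547) and NDUFA7 at 0.38 (SE 0.10, adjusted p = 0.0182). In the Q module 2 of 6 rose and 1 fell (median 0.18). NDUFS8 rose at 0.46 (SE 0.12, adjusted p = 0.0174). NDUFS7 stood at 72.7, 79.2 and 76.3 CPM in the MYDGF libraries, 70.1, 55.9 and 56.9 CPM in the aristolochic acid libraries and 65.9, 64.2 and 62.1 CPM in the untreated libraries, the MYDGF libraries above all others, and rose at 0.32 (SE 0.09, adjusted p = 0.0298). NDUFA9 fell at -0.37 (SE 0.06, adjusted p = 0.00414), with the MYDGF libraries overlapping the untreated ones. NDUFV2 and NDUFS1 were not called, at 0.07 and -0.09.

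Of the assembly factors NDUFAF3 rose at 1.37 (SE 0.23, adjusted p = 0.00329) and NDUFAF8 at 0.52 (SE 0.16, adjusted p = 0.0364). NDUFAF1, the other factor that was low with the toxin, had a log2 fold change of -0.67 (SE 0.27, adjusted p = 0.0864), which did not pass. That value rests on few counts, 24, 34 and 22 in the MYDGF libraries and 34, 56 and 27 in the aristolochic acid libraries. The 4 factors that were higher with the toxin were not called here, with log2 fold changes of 0.04 (SE 0.11, adjusted p = 0.813) for NDUFAF2, -0.13 (SE 0.13, adjusted p = 0.501) for NDUFAF4, -0.05 (SE 0.10, adjusted p = 0.714) for NDUFAF5 and 0.17 (SE 0.13, adjusted p = 0.359) for NDUFAF6. A p that misses the threshold does not show that levels were equal. No assembly factor fell by edgeR's adjusted p, where 1 (NDUFAF1) did at an unadjusted p under 0.05 and 0 by DESeq2. NDUFA4, of complex IV, stood at 91.5, 94.9 and 99.5 CPM in the MYDGF libraries, 77.7, 72.2 and 59.9 CPM in the aristolochic acid libraries and 57.9, 55.7 and 79.4 CPM in the untreated libraries. Its MYDGF libraries lay above all others, and it rose at 0.45 (SE 0.14, adjusted p = 0.0419). NDUFA4L2, which is induced by hypoxia in other cells, had 3 to 17 counts and was not called (0.27), nor was NDUFC2-KCTD14 (0.00).

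The number of higher NDUF genes in this comparison depended on the filter, on single libraries and on whether the replicate numbers entered as a block. It was 0 with that block, a fit that called 8 genes of the whole table higher. It was 9 with no filter on low counts. With the filter it was 6 without MYDGF 3, 6 without MYDGF 4, 8 without aristolochic acid 4 and 9 without aristolochic acid 6, settings in which all genes called higher numbered 1826, 1799, 1928 and 1814 in place of 2688. NDUFB10, NDUFB1, NDUFB6, NDUFB11, NDUFV1 and NDUFAF3 stayed called higher, and NDUFA8 and NDUFA9 lower, whichever library was left out. NDUFB7 lost its call when any of 8 libraries was left out (adjusted p 0.0513 to 0.149, all but MYDGF 1) and NDUFA11 when any of 7 was (0.061 to 0.119, all but untreated 2 and 3). NDUFAF8 lost it without MYDGF 1, 3 or 4, aristolochic acid 1 or 4, or untreated 2 (0.0544 to 0.107), and NDUFA4 and NDUFS7 without any MYDGF library or aristolochic acid 4 or 6 (0.0725 to 0.141, and 0.0543 to 0.114). NDUFA7 lost it without MYDGF 3 or 4 or aristolochic acid 4 or 6 (0.0568 to 0.0628), NDUFC1 without MYDGF 3 or 4 or aristolochic acid 4 (0.0626 to 0.0702), and NDUFS8 without MYDGF 3 or 4 (0.0644 and 0.0519).

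MYDGF with aristolochic acid against untreated cells sets both treatments together against none. Of 46 NDUF genes 6 rose and 11 fell, where 51.1% of all genes were called (26.8% higher, 24.3% lower). Groups did not overlap for 6 NDUF genes that were higher and 16 that were lower, where 32.8% and 31.1% of all genes did not overlap (63.9% in either direction). Among subunits 1 rose and 9 fell (median -0.10, against 0.02 over all genes). NDUFA13 (-0.82, SE 0.24, adjusted p = 0.0164), NDUFB7 (-0.72, SE 0.13, adjusted p = 0.00167) and NDUFB10 (-0.69, SE 0.19, adjusted p = 0.0119) fell. So did NDUFS5 (-0.55), NDUFA8 (-0.51), NDUFV2 (-0.31), NDUFA12 (-0.31) and NDUFV1 (-0.27). NDUFS7 rose at 0.25 (SE 0.09, adjusted p = 0.0477), and NDUFA4, outside complex I, at 0.57 (SE 0.14, adjusted p = 0.00875). Among assembly factors NDUFAF1 fell at -3.39 (SE 0.25, adjusted p = 1.46e-05) and NDUFAF3 at -1.76 (SE 0.21, adjusted p = 0.000167). NDUFAF5 (0.85, SE 0.10, adjusted p = 0.000151), NDUFAF2 (0.81, SE 0.11, adjusted p = 0.000329), NDUFAF4 (0.63, SE 0.13, adjusted p = 0.00381) and NDUFAF6 (0.62, SE 0.13, adjusted p = 0.00405) rose. Without MYDGF 4 the number of lower genes was 7. NDUFB10 then lost its call (adjusted p = 0.0516), and NDUFA13 lost it without MYDGF 1 or 4 or untreated 3 (0.0577 to 0.0617), NDUFV1 without MYDGF 4 or untreated 3 (0.0691 and 0.0773), and NDUFA12 without MYDGF 1 or 4 or untreated 2 or 3 (0.0606 to 0.111). NDUFS7 lost it when any library of either group was left out (0.0608 to 0.121).

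Subunits are set beside assembly factors here by their medians. As the median log2 ratio to the untreated mean, the 35 subunits stood at -0.22, -0.04 and -0.11 in the MYDGF libraries, -0.24, -0.33 and -0.36 in the aristolochic acid libraries and -0.02, 0.00 and 0.05 in the untreated ones. The 8 assembly factors stood at 0.29, 0.45 and 0.38 in the MYDGF libraries, 0.14, 0.37 and 0.12 in the aristolochic acid libraries and -0.01, -0.02 and -0.02 in the untreated ones. Summed CPM show the weight of single genes: the assembly factors summed to 150.2 to 168.9 CPM in the MYDGF group, 134.0 to 155.0 CPM in the aristolochic acid group and 179.1 to 184.8 CPM in the untreated group, and NDUFAF3 alone held 59.0 to 65.6 CPM of the untreated sum. The 35 subunits summed to 1946 to 2167, 1869 to 1979 and 2259 to 2352 CPM in these groups. Of the modules the distal membrane arm had MYDGF libraries at -0.21, 0.02 and -0.05, above its aristolochic acid libraries at -0.24, -0.41 and -0.43. Those of the Q module, at -0.17, -0.01 and -0.09, also lay above its aristolochic acid libraries at -0.33, -0.19 and -0.35. The N module (-0.28, -0.16 and -0.29) and the proximal membrane arm (-0.26, -0.15 and -0.20) had MYDGF libraries that overlapped their aristolochic acid libraries. These are descriptions of lists chosen by name, with no test of the lists.

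**Figure D4:**
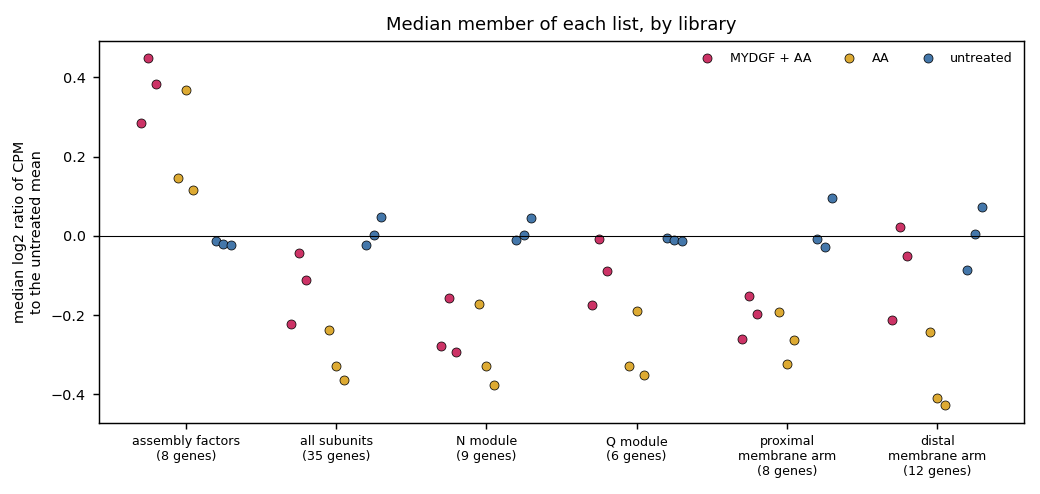
Median over the genes of each list of the log2 ratio of a library's CPM to the mean of the untreated libraries (y axis), by library, for assembly factors, all subunits and the 4 modules; MYDGF + AA is MYDGF with aristolochic acid and AA is aristolochic acid. Assembly factors lie above 0 in all 6 treated libraries and subunits below 0, and the MYDGF libraries of all subunits lie above those of the aristolochic acid group.

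Among NDUF genes, shorter ones tended to have lower fold changes with aristolochic acid and higher ones with MYDGF over it. Across the 46 genes Spearman's rho between span and log2 fold change was 0.51 with aristolochic acid and -0.59 for MYDGF over aristolochic acid, 2 comparisons that share libraries. Across 13704 protein-coding genes it was 0.05 and -0.09. Genes share libraries and depth, and no p is given. With aristolochic acid the 23 NDUF genes of up to 15 kb had a median of -0.39 and the 23 longer ones -0.12, against -0.16 and -0.02 for protein-coding genes. In the MYDGF comparison the medians were 0.38 and -0.05, against 0.10 and -0.01. All 12 genes of up to 15 kb that were called there rose, while among longer ones 2 rose and 2 fell. Of protein-coding genes of up to 15 kb 23.0% rose and 12.6% fell there, and of longer ones 14.2% and 16.0%. NDUFB10 spans 2.44 kb and NDUFAF3 3.04 kb. NDUFAF1, which also fell with the toxin, spans 22.2 kb, and the rising NDUFAF2 209.4 kb.

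**Figure D5:**
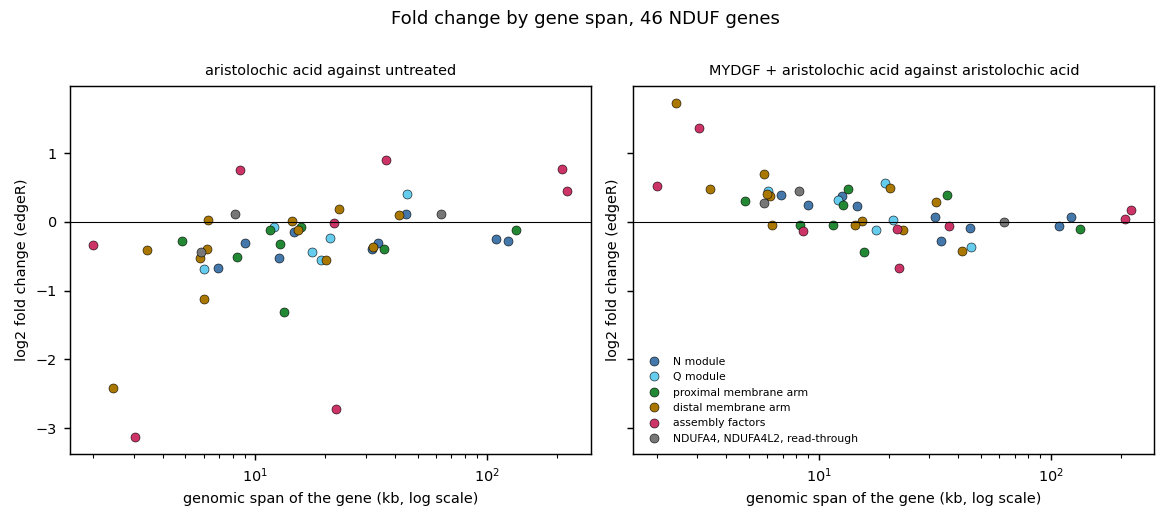
Log2 fold change (edgeR, y axis, same scale) against genomic span in kb (log x axis) for the 46 tested NDUF genes, coloured by module, aristolochic acid against untreated cells on the left and MYDGF with aristolochic acid against aristolochic acid on the right. NDUFB10 and NDUFAF3, among the shortest genes, lie far below 0 on the left at -2.42 and -3.13 and highest on the right at 1.73 and 1.37.

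Overlap with other genes limits some of these values, since the sources used here do not state a strand setting for the counting. Another gene of the table overlapped 31 of the 48. NDUFAF3 shares 60.4% of its span, and 21.65% of its exon bases, with DALRD3 on the opposite strand, which had log2 fold changes of -1.03 with the toxin and 0.47 in the MYDGF comparison. NDUFA13, NDUFA7, NDUFA9 and NDUFA11 lie almost wholly within longer genes of the same strand that carry no symbol in the table. The one around NDUFA9 had a log2 fold change of 1.57 with the toxin (adjusted p = 0.0213) and -0.08 in the MYDGF comparison (0.903). The one around NDUFA11 had -1.31 (0.00133) and 0.73 (0.0497), the one around NDUFA13 0.85 (0.0555) and 0.17 (0.731), and the one around NDUFA7 0.13 (0.582) and -0.01 (0.965). NDUFC1 shares exon bases with MGARP on its own strand (log2 fold change 2.32 with the toxin) and NDUFB11 with RBM10 on the other (0.77). NDUFS7 shares 49.1% of its exon bases with other genes. Among these, a gene without a symbol on the other strand changed by -0.36 (0.263) with the toxin and 1.135 (0.0105) in the MYDGF comparison. NDUFV2 shares 28.4% of its exon bases with a same-strand gene that was not tested. NDUFB2 shares 35.9% with other genes, BRAF on the other strand among them (1.04 with the toxin). NDUFB10 overlaps no gene, and NDUFAF1 overlaps RTF1 outside its exons. Of 63 NDUF pseudogenes 26 had counts, the most for NDUFV2P1 (2595 over 9 libraries), NDUFAF2P1 (621) and NDUFA5P11 (268), and whether reads matching several places were counted is not stated either.

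Other genes of the pathway were counted from lists by name. Beside them, 29.7% of all genes tested rose and 29.3% fell with the toxin. In the MYDGF comparison with aristolochic acid 14.7% rose and 14.7% fell. Of the 7 complex I subunits encoded in mitochondrial DNA, 6 fell with aristolochic acid (median -0.59) and 1 rose in the MYDGF comparison (median 0.02). MT-ND5, a proton-pumping subunit of the distal arm, stood at 1597, 1604 and 1618 CPM in the MYDGF libraries, 1624, 1509 and 1634 CPM in the aristolochic acid libraries and 2779.8, 2941 and 2897 CPM in the untreated libraries. Both treated groups lay below the untreated one and overlapped, with -0.85 (SE 0.04, adjusted p = 3.83e-06) for the toxin and 0.02 (SE 0.04, adjusted p = 0.824) for MYDGF over it. MT-ND3 was the one that rose with MYDGF, at 0.34 (SE 0.10, adjusted p = 0.0372). It stood at 198, 237 and 229 CPM in the MYDGF libraries and 162, 203 and 160 CPM in the aristolochic acid libraries, and these groups overlapped. Of 12 assembly factors not named NDUFAF, 2 rose and 3 fell with the toxin (median 0.06) and 3 rose and 2 fell in the MYDGF comparison (median 0.04). Among partners of NDUFAF1, ACAD9 had log2 fold changes of -0.83 (SE 0.11, adjusted p = 0.000214) with the toxin and 0.41 (SE 0.11, adjusted p = 0.0222) with MYDGF, ECSIT of 0.42 (SE 0.15, adjusted p = 0.0338) and 0.07 (SE 0.15, adjusted p = 0.771), and TMEM126B of 0.06 (SE 0.09, adjusted p = 0.536) and 0.57 (SE 0.08, adjusted p = 0.00216). Of 38 nuclear subunits of complexes II to V, 1 rose and 17 fell with the toxin (median -0.20), and 10 rose and 1 fell with MYDGF (median 0.19), beside 18 of 35 lower and 11 of 35 higher among complex I subunits. Of 7 tested regulators of respiratory genes 4 rose with the toxin: PPARGC1B (1.35), PPRC1 (0.94), GABPB1 (0.78) and ESRRA (0.48). NRF1, whose letters are capitalised above for NDUFA9 and NDUFA8, was not called at 0.08 (SE 0.08, adjusted p = 0.409), and in the MYDGF comparison 1 regulator fell, PPRC1 at -0.26 (SE 0.07, adjusted p = 0.0217). PPARGC1A had 0 counts in all 9 libraries.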

How the data were processed

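RNA from HK-2 cells (1.3 µg per library) was sequenced, and 1 table of 62703 genes and 9 libraries was deposited, with raw counts per gene and FPKM side by side. The counts were made by the authors with CASAVA 1.8, HISAT2, SAMtools 1.3.1 and edgeR, per the submitters' processing notes; the sources used here state neither the counting tool nor its settings. The notes name mm10, a mouse build, while the gene IDs are human and 92.9% of them are in GENCODE 29 (GRCh38); 99.8% of those overlap its positions. The deposited FPKM were not used to compare genes, because the gene length they imply exceeds the genomic span for some genes.

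Counts were tested with edgeR 4.0.16 (quasi-likelihood test, R 4.3.3, TMM, 3 groups in 1 fit, 6 residual degrees of freedom), two-sided, after filterByExpr (minimum count 10, minimum total 15), with Benjamini-Hochberg adjustment over all 18267 genes passing. SE is the log2 fold change divided by the square root of its F. CPM are TMM-scaled. The biological coefficient of variation was 16.4%. Scripts were tested on simulated data. Within groups, no pair of libraries agreed within sampling noise. Exon lengths, strands and overlaps came from GENCODE 29, promoters from RefSeq GRCh38.p14. Alternatives were DESeq2 1.42.0, other scalings, no filter, fits of 6 libraries, the replicate block and leaving out each library.

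Same-numbered libraries did not deviate together, so the numbers were not taken as pairs. Genes described by library are all assembly factors, the 6 subunits with the largest called changes in each toxin comparison, those called in opposite directions in these comparisons and those that moved against most subunits. Members and lists were chosen with earlier results of these data known. The values of 1 gene are not reported here; it stays in the counts and medians.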

Additional observations from a re-analysis of the deposited data

How the results depend on the processing

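Scaling by RLE, by upper quartiles or by total counts, fits of only the groups compared, and DESeq2 left the counts of NDUF genes called within 1.5 times those given, and no called gene's direction turned under any alternative. The assembly factor median for MYDGF over aristolochic acid, -0.01, lay near 0 throughout and was 0.01 without a filter. Under DESeq2 the median over all its genes was 0.12 with aristolochic acid and -0.10 with MYDGF over it, against -0.01 and 0.01 by edgeR, and the subunit medians were -0.29 and 0.21. Without a filter on low counts 9 NDUF genes were higher in the MYDGF group than in the aristolochic acid group, in place of 14. With the replicate numbers as a replicate block, 2 NDUF genes were higher and 7 lower with aristolochic acid against untreated cells, 0 and 0 with MYDGF against aristolochic acid, and 3 and 7 with MYDGF against untreated cells. In the MYDGF comparison with aristolochic acid the block called 8 and 6 genes of the whole table, and at an unadjusted p under 0.05 it gave 10 higher and 4 lower NDUF genes. Under it the subunit median was -0.19 with aristolochic acid and 0.10 with MYDGF over aristolochic acid, and rho with span in the MYDGF comparison with aristolochic acid -0.51. Of 5 same-numbered pairs of libraries, correlations of deviations ran from -0.174 to 0.024, so the numbers were not taken as pairs. The block leaves fewer residual degrees of freedom than the 6 of the main fit. The MYDGF and aristolochic acid groups share only numbers 1 and 4. The part of these limits in the lower counts was not tested.

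Leaving out each library in turn gave 4 to 6 higher and 17 to 21 lower NDUF genes with aristolochic acid, 6 to 15 and 2 to 3 with MYDGF over aristolochic acid, and 5 to 6 and 7 to 13 with MYDGF against untreated cells. Subunit medians ran from -0.36 to -0.29, 0.12 to 0.26 and -0.15 to -0.04 in these comparisons, and assembly factor medians from 0.13 to 0.28, -0.046 to 0.059 and 0.35 to 0.43. Spearman's rho with span ran from 0.45 to 0.51 with aristolochic acid and from -0.60 to -0.55 with MYDGF over it; Pearson's r on log10 span was 0.45 and -0.54. Of calls in the full fit, 9 of 25, 0 of 16 and 9 of 17 were kept in all 16 alternatives including the block. With 3 libraries a group and these depths, NDUFS3 and NDUFA4L2 are limited by counts, and NDUFA3 and NDUFA6 could not be tested. NDUFAF1 is limited by counts where the MYDGF and aristolochic acid groups are compared.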
